A study of Caenorhabditis elegans with 10 samples.

Results

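Embryos of the lin-45(n2018) strain of Caenorhabditis elegans were compared by RNA sequencing on high and on low salt. The comparison uses 4 of the 10 libraries of the study, taken by their labels: both lin-45 libraries of embryos placed on 500 mM NaCl, against both of embryos placed on 50 mM NaCl. The parents of all 4 had been kept on 50 mM NaCl, and the embryos were collected 3 hours after egg preparation, so only the embryos' own salt level differs between the groups by label. All 45461 genes of the deposited table were considered. The labels name no embryonic stage, no temperature and no number of parents, and they do not say what n2018 does to the protein. Whole embryos were lysed, and polyadenylated RNA was selected and sequenced as read pairs. The wild-type strain N2, with 2 libraries on each salt and parents on 50 mM NaCl, is used below only to show where the mutant's salt effect differs. The last 2 libraries, N2 embryos on 500 mM NaCl from parents on 300 mM NaCl (the salt-raised N2 libraries), enter no comparison. They do enter the gene filter, the scaling and the estimate of the spread, and so can move fold changes as well as p-values.

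lin-45 encodes the worm's RAF kinase, which passes signals from RAS to the kinases MEK and ERK in the excretory system, the epidermis, the vulva and the germ line. On hypertonic medium worms lose water, and they regain volume by accumulating glycerol, whose synthesis is controlled mainly through the transcript of gpdh-1. Embryos are enclosed in an eggshell, and before hatching their epidermis elongates and secretes first a sheath and then a collagen cuticle, so many of their genes change with age as well as with medium.

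Pairs of values below are replicates 1 and 2, in that order. Levels are CPM (counts per library, set to a common total), scaled by the trimmed mean of M values (TMM), which are not corrected for transcript length. Fold changes are log2 values of 500 over 50 mM with the standard error (SE) of the fit, n = 2 libraries per group. The adjusted p is Benjamini-Hochberg over 14802 genes in edgeR's two-sided quasi-likelihood test, and "rose" and "fell" mean an adjusted p below 0.05. The labels do not say whether replicates came from separate cultures, and the spread that the p-values measure may be a technical one. With 2 libraries in each group, the smallest p of an exact permutation test is 0.333, and each call therefore rests on a spread pooled over genes and groups.

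The lin-45 libraries held 23498074 and 30356117 counts on 50 mM and 32066595 and 29606281 on 500 mM, within the 22138098 to 34585489 of the whole study. The 2 libraries on 50 mM were less alike than the 2 on 500 mM. On a log2(CPM + 1) scale, 254 genes lay at least 2-fold apart between the former, of which 226 were higher in replicate 2, against 14 genes between the latter. The salt-raised N2 pair, which enters the scaling and the estimate of the spread, was the least alike in the study. It had 454 genes that far apart and a root mean square log2 difference of 0.424. Replicate 1 on 50 mM also carried more ribosomal RNA: the 7 tested rRNA genes summed to 1821 CPM there, 465 in replicate 2, and 282 and 165 on 500 mM. N2 replicate 1 on 50 mM had a similar excess, at 1997 CPM against 209.8 in its replicate 2. Yolk and sperm genes of the mother were nearly absent. The 6 vit genes summed to between 3.70 and 9.08 CPM (before TMM scaling) per library, and all 35 msp genes stayed below 1 CPM, 11 of them with no count.

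The lin-45 transcript itself was present in every library. It stood at 118 and 119.1 CPM on 50 mM and 96.7 and 104.1 CPM on 500 mM. Both values on high salt lay below both on low salt, as for 45% of all tested genes. The decrease was small (log2 -0.24 ± 0.09, adjusted p = 0.0391) and near the threshold, which it did not reach in 15 of the 18 alternative settings. lin-45 (Y73B6A.5) lies on chromosome IV at 6742526 to 6748413 in ce10, the build of all coordinates given here. The transcript level does not show what the mutant protein does.

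Most of the measured transcriptome of lin-45 embryos differed between the groups on 500 and 50 mM. Of the 14802 tested genes, 4949 were higher (33.4%) and 5161 lower (34.9%) on 500 mM, 68.3% in all, and the median gene moved by -0.02. By at least 2-fold, 2560 genes were higher (17.3%) and 2279 lower (15.4%). By at least 4-fold, 1035 were higher (6.99%) and 921 lower (6.22%). The middle 50% of genes lay between -0.66 and 0.67. The root mean square difference between the groups was 1.16 on the log2(CPM + 1) scale, against 0.290 between the 2 libraries on 50 mM and 0.176 between the 2 on 500 mM. Because 68.3% of genes are called, a list with shares near 33.4% higher and 34.9% lower lies at the background. Groups without overlap were also common: both libraries on 500 mM lay above both on 50 mM for 43.2% of tested genes and below both for 45%.

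**Figure D1:**
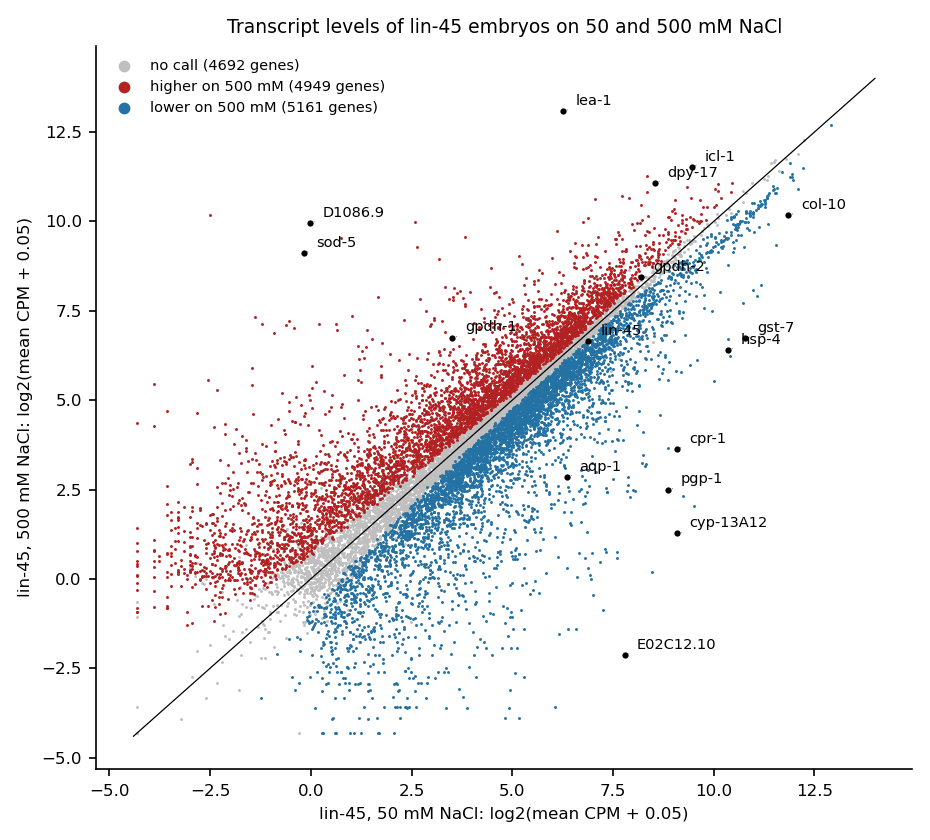
Mean level of each tested gene in lin-45 embryos on 50 mM (x axis) and 500 mM NaCl (y axis), as log2(CPM + 0.05), with 1 point per gene and the diagonal marking equal levels. The 4949 genes called higher lie above the diagonal and the 5161 called lower lie below it, and genes nearly silent on one salt, such as D1086.9 and E02C12.10, lie far from it.

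The largest gain in reads belonged to lea-1, which encodes a late embryogenesis abundant protein, a class known from drying seeds and desiccating animals. lea-1 stood at 79.0 and 73.7 CPM on 50 mM and 9718 and 7575 CPM on 500 mM. Each library on high salt was therefore far above each on low salt (113-fold, log2 6.82 ± 0.30, adjusted p = 5.59e-07). lea-1 lies on chromosome V at 10011846 to 10023212, and its span overlaps that of K08H10.2, at a mean of 284 CPM over the 4 libraries. By the authors' deposited FPKM, which is corrected for transcript length, lea-1 ranked 6 among the genes of lin-45 embryos on 500 mM, at 4241 and 3389. The gene M60.4, of no named function here, ranked 3 there at 4727 and 4113 FPKM and had risen from 306 and 340.4 to 2688 and 2246 CPM (log2 2.93 ± 0.23, adjusted p = 9.26e-06).

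Other large gains came from metabolism and from RNA without protein. icl-1 encodes the enzyme that starts the glyoxylate cycle, by which worms turn stored fat into sugar, and it went from 675 and 725 CPM to 2892 and 2957 CPM (log2 2.06 ± 0.07, adjusted p = 2.71e-07). The noncoding RNA tts-1, known for its high level in dauer larvae and long-lived adults, rose from 175 and 247 CPM to 1831 and 1516 CPM (log2 2.99 ± 0.28, adjusted p = 2.53e-05). For both genes the 2 pairs of libraries did not overlap, as the choice of genes required. far-3, for a secreted protein that binds fatty acid and retinol, rose from 142 and 124 to 1779 and 1395 CPM (log2 3.58 ± 0.21, adjusted p = 1.99e-06). dap-1 (T28F4.5) rose from 241 and 233 to 1728 and 1497 CPM. The remaining large gains, sqt-3, dpy-17, dpy-14 and F41F3.3, are described with the cuticle.

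Among genes with more than 10 counts on 50 mM, D1086.9 had the highest fold. It stood at 0.877 and 0.9962 CPM on low and 1109 and 881 CPM on high salt (log2 10.04 ± 0.50, adjusted p = 9.65e-07), and it lies on chromosome V at 14104254 to 14106466. sod-5, an inducible cytosolic superoxide dismutase, stood at 0.877 and 0.790 CPM on low and 642 and 462 CPM on high salt (log2 9.37 ± 0.48, adjusted p = 1.14e-06). Both genes were close to silent in each low-salt library and strongly read in each high-salt library. The small heat shock proteins hsp-16.21 (F08H9.4) and hsp-12.6 rose by 8.83 ± 0.49 and 8.41 ± 0.51. ant-1.2, for a mitochondrial ADP/ATP carrier, went from 0.831 and 0.447 CPM to 166 and 133 CPM, and djr-1.2, for a glyoxalase of the DJ-1 family, from 0.785 and 0.412 CPM to 164 and 109 CPM. The main somatic carrier gene, ant-1.1, moved the other way, from 4904 and 4564 to 2937 and 2798 CPM (log2 -0.72 ± 0.09, adjusted p = 0.0001). fipr-22, of a family named for induction by fungal infection, rose from 5.45 and 6.49 to 1110 and 902 CPM (log2 7.39 ± 0.30, adjusted p = 4.43e-07). R09E10.13, R05D7.2, C37A5.5, F40G12.5 and F56D6.9 complete the 12 highest folds, between 7.004 and 8.81. clx-1, chosen after its values were seen, had only 6 counts over both libraries on 50 mM and stood at 1278 and 1022 CPM on 500 mM (log2 13.19 ± 0.60, adjusted p = 6.37e-07).

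The 12 lowest folds include 4 cytochrome P450 genes and 2 saposin-like genes. E02C12.10 fell from 224 and 217 CPM to 0.190 and 0.169 CPM (log2 -10.23 ± 0.20, adjusted p = 2.04e-08). The cytochrome P450 genes cyp-13A12 and cyp-13A5 fell from 621 and 469 CPM to 2.35 and 2.40 CPM and from 783 and 671 CPM to 4.44 and 3.72 CPM. Their relatives cyp-13A8 and cyp-33D3 gave -8.17 ± 0.32 and -7.98 ± 0.36. The saposin-like genes spp-23 and spp-17, whose class includes antibacterial proteins, lie near each other on chromosome I and gave -8.21 ± 0.25 and -7.91 ± 0.46. gba-2, for a glucocerebrosidase, fell from 138 and 116 CPM to 0.539 and 0.811 CPM (log2 -7.56 ± 0.21, adjusted p = 9.43e-08). col-176, a cuticle collagen gene, fell from 378 and 333 CPM to 1.11 and 1.08 CPM (log2 -8.34 ± 0.23, adjusted p = 8.47e-08). phat-3, Y49G5A.1 and F57H12.6 complete the 12 lowest folds, at -7.16, -7.33 and -7.03. For each of these 12 genes, both libraries on 500 mM lay below both on 50 mM, as the choice of genes required.

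**Figure D2:**
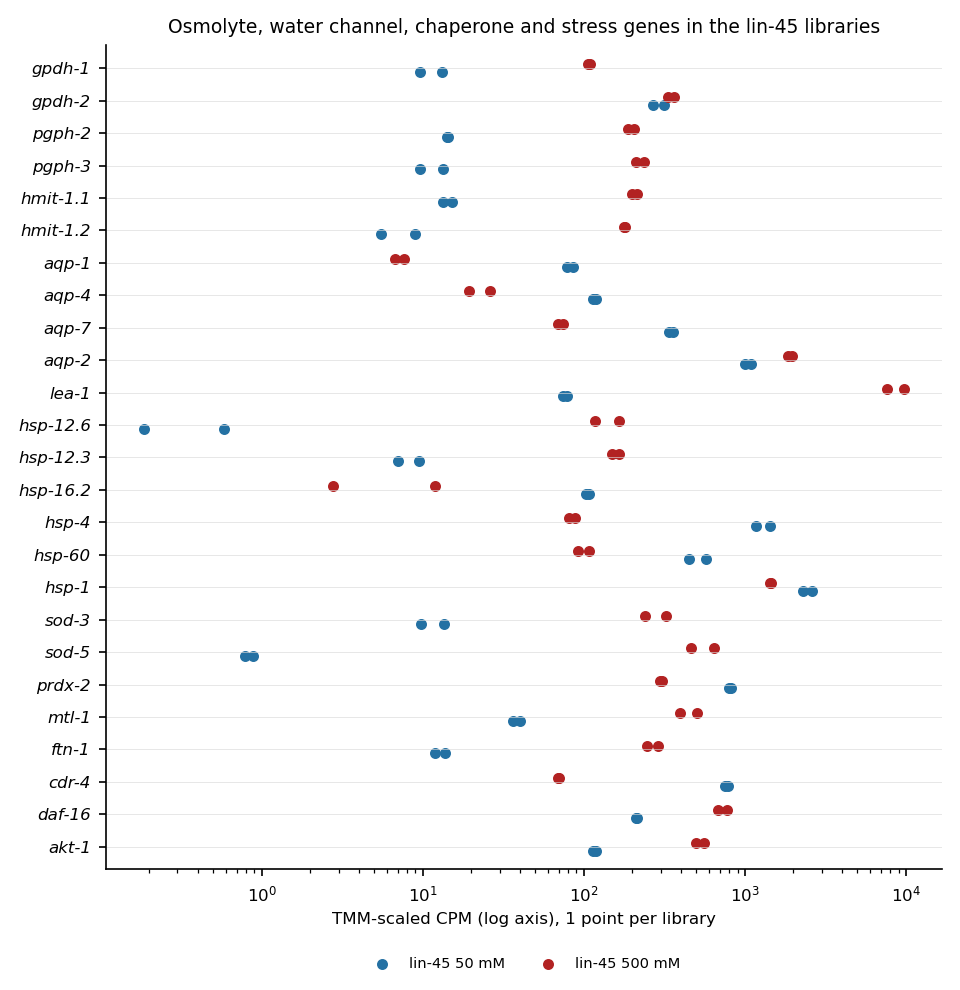
TMM-scaled CPM on a log axis for 25 osmolyte, water channel, chaperone and stress genes, with 1 point per lin-45 library (blue 50 mM, red 500 mM). lea-1, gpdh-1, sod-5 and hsp-12.6 sit far to the right on 500 mM, aqp-1, hsp-4 and cdr-4 far to the left, and gpdh-2 shows pairs that lie close together.

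In the glycerol pathway 3 of 5 members rose. Glycerol is made from a glycolytic intermediate by glycerol 3-phosphate dehydrogenase (gpdh genes) and then a phosphatase (pgph genes). gpdh-1 stood at 13.2 and 9.62 CPM on 50 mM and 109 and 107 CPM on 500 mM, a 9.50-fold rise (log2 3.25 ± 0.16, adjusted p = 1.02e-06). pgph-2 went from 14.4 and 14.1 CPM to 206 and 188 CPM (log2 3.79 ± 0.20, adjusted p = 1.2e-06), and pgph-3 from 9.56 and 13.3 CPM to 238 and 211 CPM (log2 4.28 ± 0.24, adjusted p = 1.77e-06). In all 3 genes the groups were far apart. gpdh-2 stood at 317 and 268 CPM on low and 363 and 332 CPM on high salt, which missed the threshold (log2 0.25 ± 0.10, adjusted p = 0.0607), and so did pgph-1, read at 0.554 and 0 CPM on low and 0.919 and 2.87 CPM on high salt (log2 2.92 ± 1.17, adjusted p = 0.0515). Both were called higher under 7 of 18 alternative settings, among them scaling by RLE, the upper quartile or library size alone, and without replicate 1 on 50 mM or either salt-raised N2 library, and under others 1 of them was, so that from 3 to all 5 members rose according to the setting. The span of gpdh-1 overlaps that of gadr-6, at a mean of 27.03 CPM.

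The strains were compared by an interaction term, which takes the mutant's log2 change with salt and subtracts the N2 change. In N2, gpdh-1 rose from 4.05 and 3.34 CPM to 187 and 180.0 CPM. Its salt effect was smaller in lin-45, with a difference of -2.39 ± 0.23 (interaction of strain and salt, adjusted p = 0.00224), and that of gpdh-2, at 125 and 137 CPM on low and 318 and 352 CPM on high salt in N2, likewise, with -1.10 ± 0.15 (adjusted p = 0.00541). On low salt both lin-45 libraries held more of each transcript than both N2 libraries. On high salt both held less gpdh-1 than N2, while the gpdh-2 pairs overlapped.

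Transcripts for the uptake and synthesis of inositol, another organic osmolyte, rose in all 5 tested members. hmit-1.1, for a transporter driven by protons, went from 15.1 and 13.4 CPM to 198 and 214 CPM (log2 3.85 ± 0.12, adjusted p = 1.76e-07), and its relative hmit-1.2 from 5.49 and 8.90 CPM to 178 and 181 CPM (log2 4.62 ± 0.22, adjusted p = 8.06e-07). The third transporter gene, hmit-1.3, rose only by 0.65 ± 0.12, inos-1, the inositol phosphate synthase, by 0.85 ± 0.07, and the phosphatase gene ttx-7 by 0.36 ± 0.07. Of 8 trehalose genes, 4 rose and 1 fell. The synthases tps-1 and tps-2 and the phosphatase gob-1 rose by 0.88 ± 0.12, 0.67 ± 0.08 and 1.12 ± 0.08. Among the trehalases, which break the sugar down, tre-2 fell from 80.4 and 78.4 to 33.4 and 31.1 CPM and tre-5 rose from 5.08 and 7.18 to 15.5 and 15.8 CPM, and tre-1, tre-3 and tre-4 missed the threshold. tre-1 and tre-4 were called higher with library size alone, without replicate 2 on 500 mM or without either salt-raised N2 library. tre-5 overlaps sptl-1, at 128 CPM. Of 7 tested snf genes, for sodium-coupled transporters, snf-1, snf-3 and snf-8 rose, by 0.78, 0.46 and 1.87, none fell (1 in a fit of the lin-45 libraries alone), and 5 of the 7 rose with library size alone as the scale or without either salt-raised N2 library. snf-3 was not called without replicate 2 on 50 mM or replicate 1 on 500 mM.

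Water channel genes split, and most fell: 3 of 11 tested aquaporin genes rose and 7 fell (median -0.81). aqp-1 fell from 78.6 and 85.7 CPM to 6.75 and 7.63 CPM (log2 -3.51 ± 0.13, adjusted p = 2.74e-07), though its span overlaps ctsa-3.1, at 137 CPM. aqp-7 fell from 357 and 336 CPM to 69.2 and 73.8 CPM (log2 -2.28 ± 0.08, adjusted p = 2.41e-07) and aqp-4 from 113 and 119.4 CPM to 19.5 and 26.2 CPM (log2 -2.35 ± 0.14, adjusted p = 2.14e-06). Against these, aqp-2 rose from 1000 and 1098 CPM to 1973 and 1848 CPM (log2 0.86 ± 0.09, adjusted p = 5.69e-05), and the summed aquaporin level went from 1779 and 1874 CPM to 2231 and 2119 CPM. aqp-10 stood at 93.1 and 99.4 CPM on low and 89.01 and 91.3 CPM on high salt and was not called.

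Ion transport genes showed no common direction, with 10 of 30 higher, 12 lower (7 without replicate 1 on 500 mM) and a median of -0.05. wnk-1 and gck-3, the kinase pair that controls chloride transporters and gpdh-1 in adult worms (gck-3 chosen after its values were seen), rose by 1.21 ± 0.07 and 0.38 ± 0.06. wnk-1 stood at 174 and 183 CPM on low and 416 and 412 CPM on high salt. A pair of genes related to the sodium pump moved apart: catp-1 rose by 1.04 ± 0.11 and catp-3 fell by 2.79 ± 0.16, from 146 and 191 to 22.1 and 26.7 CPM.

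Of 9 tested genes that hold the adult hypertonic response off, 7 rose and 2 fell. Those that rose include dpy-2, dpy-3, dpy-7 and dpy-10, collagen genes of the cuticle's annular furrows, by 2.82, 2.83, 2.72 and 2.70. osm-8, for a secreted mucin-like protein, rose from 2.08 and 7.63 to 20.5 and 22.7 CPM (log2 2.11 ± 0.41, adjusted p = 0.00182), and its span overlaps npp-21, at 100.2 CPM. osm-11, for a secreted Notch co-ligand, fell from 334 and 292 CPM to 56.3 and 57.8 CPM (log2 -2.46 ± 0.10, adjusted p = 4.86e-07), and dpy-9 fell from 10.7 and 5.81 to 2.06 and 2.70 CPM. The 2 libraries on 50 mM differed here: the median of the 9 was 2.88 against replicate 1 alone and 1.39 against replicate 2 alone.

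The genes of the RAS to ERK pathway, in which LIN-45 acts, moved little. Of 24 members 10 rose, 6 fell and none moved 2-fold, with a median of 0.01. The ligand gene lin-3 fell from 38.9 and 37.6 to 21.7 and 22.9 CPM (log2 -0.78 ± 0.12, adjusted p = 0.000419), but it overlaps ttr-16, at 614 CPM. sos-1, the exchange factor that activates RAS, rose from 58.5 and 66.2 to 96.2 and 97.6 CPM (log2 0.64 ± 0.08, adjusted p = 0.000194), and gap-2, which inactivates RAS, rose by 0.44 ± 0.09. The nuclear factor eor-2 rose by 0.68 ± 0.07 and the Mediator subunit sur-2 by 0.51, while the phosphatase ptp-2 fell by 0.43 ± 0.08. The core members fell slightly: RAS (let-60), MEK (mek-2) and ERK (mpk-1), chosen after their values were seen, gave -0.22, -0.24 and -0.25, close to the -0.24 of lin-45, with adjusted p = 0.0275, 0.0345 and 0.043. Such small falls depended on the setting. The count was 2 with RLE factors, library size alone or DESeq2, or without either lin-45 library on 500 mM, replicate 1 on 50 mM or either N2 library of salt-raised parents, and 3 with upper-quartile factors or without either N2 library on 50 mM. mek-2 overlaps col-48, at 170.5 CPM.

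Stress kinase cascades gave a similar picture, with 3 of 15 members higher, 5 lower (3 with RLE or upper-quartile factors, library size alone, the filter of 5 CPM or DESeq2, and when any 1 library other than lin-45 50 mM replicate 1 was left out) and a median of -0.06. pmk-1 and pmk-2, for p38 kinases, rose by 0.79 ± 0.09 and 0.60 ± 0.08, and nsy-1, which acts above them, by 0.51 ± 0.08. tir-1, the adaptor at the top of that cascade, fell from 490.4 and 481 CPM to 247 and 239 CPM (log2 -0.999 ± 0.08, adjusted p = 7.39e-06).

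Insulin receptor pathway genes mostly rose: 6 of 10 members were higher and 1 lower (none without replicate 2 on 500 mM), with a median of 0.70. daf-16, the FOXO factor that the pathway restrains, went from 212 and 213 CPM to 772 and 683 CPM (log2 1.77 ± 0.14, adjusted p = 7.86e-06). akt-1, a kinase that restrains it, went from 114 and 119.1 CPM to 559.7 and 499 CPM (log2 2.19 ± 0.13, adjusted p = 2.12e-06), and the receptor gene daf-2 from 145 and 144 CPM to 296 and 297 CPM (log2 1.04 ± 0.07, adjusted p = 3.3e-06). The factor, its kinase and the receptor thus rose together. Their groups did not overlap, as for 43.2% of all tested genes in that direction. akt-2, pdk-1 and ist-1 rose by 1.16, 0.75 and 0.64, sgk-1 fell by 0.43, and age-1, aap-1 and daf-18 gave -0.17, -0.02 and 0.07 without a call. akt-1 overlaps rop-1, at 162 CPM.

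Chaperones did not move as one class. The shares of small heat shock genes (30.8% higher, 38.5% lower) and of cytosolic chaperones (33.3% and 33.3%) lay near the background of 33.4% and 34.9%. Among 13 tested small heat shock genes 4 rose and 5 fell, or 8 without either N2 library of salt-raised parents and 9 in a fit of the lin-45 libraries alone. hsp-12.6 stood at 0.185 and 0.584 CPM on low and 166 and 116 CPM on high salt, and hsp-12.3 at 7.06 and 9.48 CPM on low and 165 and 150.3 CPM on high salt (log2 4.24 ± 0.17, adjusted p = 3.73e-07). In contrast hsp-16.2, the classic heat shock gene, stood at 107 and 103.5 CPM on low and 2.76 and 11.96 CPM on high salt (log2 -3.85 ± 0.82, adjusted p = 0.00284). Of 12 cytosolic HSP70 and HSP90 genes and helpers, 4 rose and 4 fell. The abundant HSP70 gene hsp-1 fell from 2602 and 2307 CPM to 1462 and 1433 CPM, its exchange factor hsp-110 by 0.95 ± 0.09 and the adaptor sti-1 by 1.41 ± 0.08, whereas the heat shock factor gene hsf-1 rose by 0.68 ± 0.07. The CCT chaperonin, which folds actin and tubulin, had 5 of 8 subunit genes lower (3 without replicate 2 on 500 mM) and none higher (1 without either salt-raised N2 library).

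Chaperone genes of mitochondria mostly fell, and those of the endoplasmic reticulum fell more often than they rose. hsp-4, the reticulum's BiP and the usual reporter of its unfolded protein response, stood at 1434 and 1178 CPM on 50 mM and 80.8 and 88.7 CPM on 500 mM, 15.4-fold lower (log2 -3.95 ± 0.16, adjusted p = 4.12e-07). The other BiP gene, hsp-3, and xbp-1, the factor that induces both (both chosen after their values were seen), fell by 0.51 ± 0.09 and 0.49 ± 0.08. Of the 20 reticulum genes 9 fell and 4 rose. cnx-1, for the lectin chaperone calnexin, rose by 0.89 ± 0.07 and pdi-6 fell by 1.14 ± 0.08. In mitochondria 8 of 10 genes fell: hsp-60 went from 576 and 452 CPM to 92.2 and 108 CPM (log2 -2.36 ± 0.13, adjusted p = 1.38e-06), hsp-6 fell by 0.88 ± 0.09, and atfs-1, the factor that induces both on mitochondrial stress, by 1.16 ± 0.08. The 1 gene that rose was dve-1, a nuclear factor of the same stress response (log2 1.30 ± 0.13, adjusted p = 4.29e-05).

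Oxidative stress genes split, with 7 of 18 higher and 10 lower. sod-3, the mitochondrial dismutase that DAF-16 induces, went from 9.70 and 13.6 CPM to 322 and 241 CPM (log2 4.58 ± 0.31, adjusted p = 4.05e-06). The abundant peroxiredoxin gene prdx-2 fell from 815 and 800.0 CPM to 308 and 297 CPM (log2 -1.42 ± 0.08, adjusted p = 1.42e-06) and gcs-1, the first enzyme of glutathione synthesis, from 362 and 407 CPM to 157 and 154 CPM (log2 -1.31 ± 0.10, adjusted p = 7.43e-06). Metal-binding genes split 6 to 6 of 13. The metallothionein gene mtl-1 rose from 36.2 and 40.0 to 502 and 393 CPM and the ferritin gene ftn-1 from 11.9 and 13.8 to 289 and 246 CPM (3.55 ± 0.23 and 4.37 ± 0.20). cdr-4, of the cadmium-responsive family, fell from 749 and 783 CPM to 70.5 and 68.8 CPM (log2 -3.46 ± 0.10, adjusted p = 1.09e-07).

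**Figure D3:**
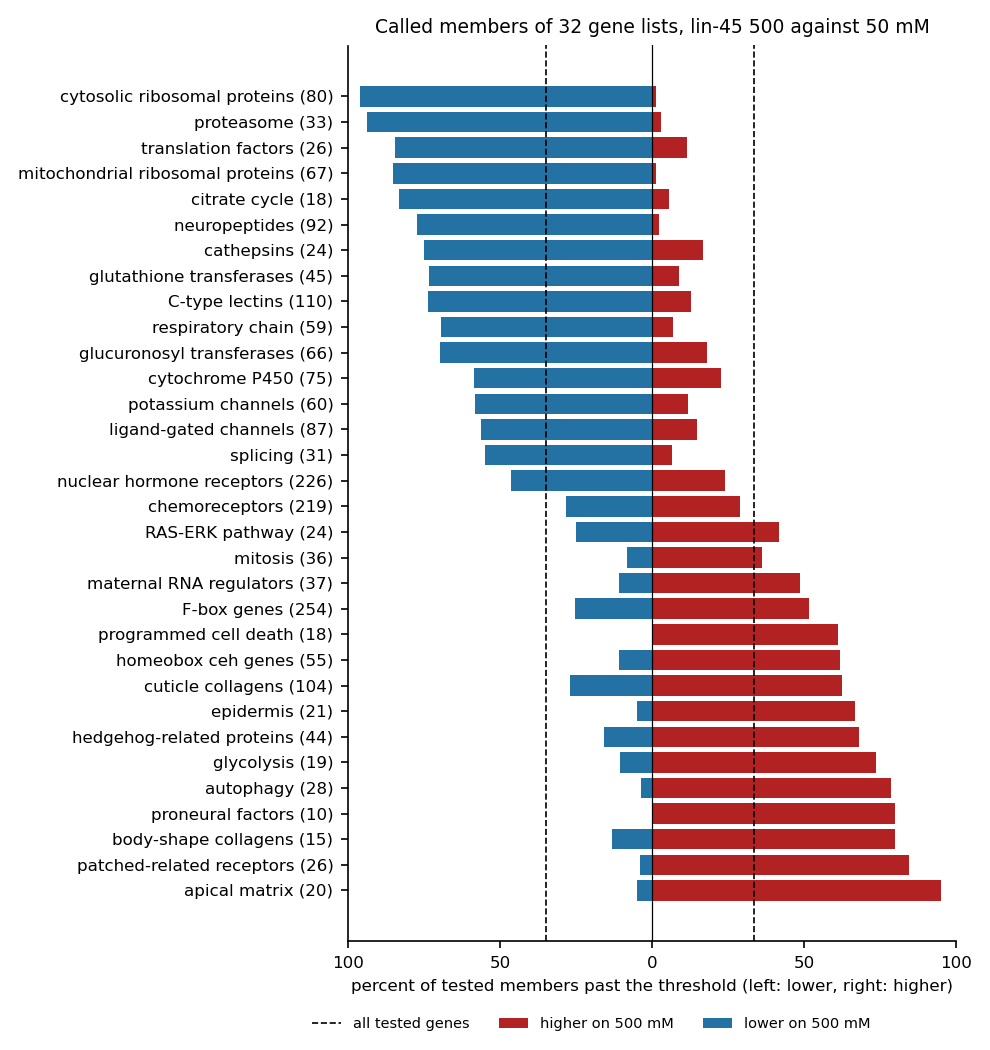
Percent of tested members called higher (red, to the right) and lower (blue, to the left) on 500 mM for 32 gene lists, with the number tested in brackets and dashed lines at 33.4% and 34.9%, the shares of all tested genes. Ribosomal, proteasome and neuropeptide lists lie almost wholly to the left, and apical matrix, patched-related and body-shape collagen lists to the right.

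Genes of the protein synthesis machinery mostly fell. A fall of at least 2-fold was called for 1 of 80 cytosolic and 17 of 67 mitochondrial ribosomal protein genes. It was called for 10 of 26 translation factor, 8 of 23 tRNA synthetase and 3 of 20 nucleolar factor genes, against 15.4% of all tested genes. Of 80 cytosolic ribosomal protein genes 77 fell (96.2%) and 1 rose (2 without either salt-raised N2 library), with a median of -0.73, and their summed level went from 128700 and 114500 CPM to 75400 and 72230 CPM. Only rps-12 fell 2-fold, from 1581 and 1421 CPM to 729 and 689 CPM (log2 -1.08 ± 0.10, adjusted p = 2.83e-05), and rpl-24.2, whose product works in ribosome assembly, was the member that rose, by 0.37 ± 0.08. Mitochondrial ribosomal genes followed, with 57 of 67 lower, 1 higher (3 without either salt-raised N2 library) and a median of -0.67: mrpl-12 fell from 73.1 and 64.9 CPM to 22.6 and 21.8 CPM, and mrps-11, the member that rose, went from 59.0 and 59.98 CPM to 129 and 114 CPM. Of 26 translation factor genes 22 fell and 3 rose. eif-6, needed for large subunit formation, fell by 1.66 ± 0.10 and eif-3.D, of the initiation complex, by 1.41 ± 0.08, while iff-1, a germ line form of the factor eIF5A, rose by 1.87 ± 0.21. Of 23 tRNA synthetase genes 17 fell and none rose (3 without either salt-raised N2 library), led by nars-1 and kars-1 at -1.68 ± 0.09 and -1.56 ± 0.10. Nucleolar factors showed the same direction in 14 of 20, with fib-1, the fibrillarin gene, down from 612 and 523 CPM to 174 and 185 CPM (log2 -1.66 ± 0.10, adjusted p = 2.15e-06).

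Splicing genes fell less firmly. Of 31, 17 were lower and 2 higher with a median of -0.38, but only 8 were lower without replicate 2 on 500 mM. The higher count was 1 without lin-45 50 mM replicate 2 or 500 mM replicate 1 and 4 with RLE factors or without either salt-raised N2 library. snr-1, for a core spliceosome protein, fell from 102.7 and 93.8 CPM to 45 and 47.8 CPM (log2 -1.08 ± 0.13, adjusted p = 8.9e-05), and rsp-4, for an SR protein, rose from 38.3 and 34.4 to 82.2 and 86.8 CPM (log2 1.22 ± 0.16, adjusted p = 0.000202). Nucleoporin genes gave 14 of 26 lower, 9 without replicate 1 on 50 mM or either library on 500 mM, with npp-9 at 252 and 214 CPM on low and 81.6 and 83.9 CPM on high salt (log2 -1.49 ± 0.11, adjusted p = 7.43e-06).

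Protein breakdown moved in opposite directions by route. The proteasome, which degrades ubiquitin-tagged proteins, had 31 of 33 subunit genes lower and 1 higher (2 without either salt-raised N2 library), with a median of -0.91. pas-4, of its core ring, went from 84.2 and 74.9 CPM to 24.9 and 24.9 CPM (log2 -1.68 ± 0.09, adjusted p = 1.67e-06), and rpt-5, of the regulatory cap, from 105 and 93.1 CPM to 40.7 and 41.6 CPM (log2 -1.26 ± 0.09, adjusted p = 7.34e-06). Every high-salt library stood below every low-salt library for both genes, as for 45% of all tested genes. The exception was rpn-6.2, a weakly read relative of rpn-6.1, at 1.80 and 1.92 CPM on low and 5.58 and 4.53 CPM on high salt (log2 1.44 ± 0.30, adjusted p = 0.00249). In N2 4 members rose and 13 fell, where 31.4% and 32.1% of all tested genes rose and fell, and the median was -0.19. The interaction was more negative in lin-45 for 32 of 33 members (14.3% of all tested genes), a count that fell to 12 without N2 50 mM replicate 1 and to 7 without lin-45 500 mM replicate 2.

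Autophagy genes, for the lysosomal route, rose: 22 of 28 were higher, with a median of 0.58. The fall of bec-1 (-0.26, adjusted p = 0.0336) was not called under 12 of the alternative settings, among them leaving out any lin-45 library. epg-2, an adaptor for embryonic autophagy cargo, went from 85.5 and 107 CPM to 399 and 429 CPM (log2 2.10 ± 0.18, adjusted p = 1.4e-05), and atg-2, needed for membrane growth, from 95.4 and 119.2 CPM to 411 and 401 CPM (log2 1.92 ± 0.11, adjusted p = 1.53e-06). lgg-1 and lgg-2, the worm's LC3 proteins that coat the autophagosome, rose by 1.19 ± 0.09 and 1.20 ± 0.09, with lgg-1 at 498 and 559 CPM on low and 1236 and 1167 CPM on high salt. The summed level of the list went from 3096 and 3270 CPM to 5837 and 5680 CPM.

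In carbon metabolism, glycolysis genes mostly rose and mitochondrial genes mostly fell. Glycolysis genes rose in 14 of 19 cases and fell in 2, with a median of 0.49. tpi-1 and gpd-3, which handle the triose intermediates next to glycerol synthesis, went from 368 and 352 CPM to 566 and 623 CPM and from 744 and 683 CPM to 1075 and 1054 CPM. aldo-1 and enol-1 were the members that fell, by 0.80 ± 0.13 and 0.62 ± 0.08. Of 6 genes for building sugar, 4 rose and fbp-1 fell: beside icl-1, pck-2 rose from 823 and 799 to 1566 and 1526 CPM (log2 0.93 ± 0.07, adjusted p = 7.27e-06) and pck-1 by 0.71 ± 0.12. In the mitochondria, 15 of 18 citrate cycle genes fell and ogdh-1 rose (not called without replicate 2 on 50 mM or replicate 1 on 500 mM), and 41 of 59 respiratory chain genes fell and 4 rose (2 without replicate 2 on 50 mM, 7 without replicate 1 on 50 mM and 8 without either salt-raised N2 library), with medians of -0.51 and -0.49. mdh-2, malate dehydrogenase, went from 796 and 702 CPM to 313 and 325 CPM (log2 -1.23 ± 0.10, adjusted p = 8.5e-06), and atp-1, of the ATP synthase, from 2626 and 2319 CPM to 1360 and 1326 CPM (log2 -0.88 ± 0.08, adjusted p = 2.86e-05). Of the 20 tested genes of the vacuolar proton pump, 2 fell (1 without lin-45 50 mM replicate 1 or either lin-45 library on 500 mM) and none rose (3 with library size alone or without lin-45 500 mM replicate 2, and 7 without either salt-raised N2 library).

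Fat genes mostly fell, with exceptions of large size. Of 17 genes for making and desaturating fatty acids, 13 fell and 3 rose. fasn-1, fatty acid synthase, went from 1991 and 1791 CPM to 851 and 886 CPM (log2 -1.12 ± 0.12, adjusted p = 5.73e-05), and the polyunsaturated fat enzymes fat-1 and elo-1 fell by 1.504 ± 0.09 and 1.94 ± 0.14. fat-6, a desaturase that makes oleate, rose from 70.4 and 82.0 to 394 and 336 CPM (log2 2.26 ± 0.20, adjusted p = 1.72e-05). In fatty acid activation and oxidation 36 of 55 fell and 13 rose. ech-9 fell from 164 and 126 CPM to 1.30 and 1.39 CPM (log2 -6.75 ± 0.28, adjusted p = 4.66e-07) and acox-1, the peroxisomal oxidase of pheromone synthesis, from 445 and 415 CPM to 55.2 and 61.4 CPM (log2 -2.88 ± 0.10, adjusted p = 2.74e-07). acdh-1, the short-chain dehydrogenase used as a reporter of diet, rose from 0.0923 and 0.206 CPM, 8 counts over both libraries, to 39.2 and 38.5 CPM (log2 7.91 ± 0.36, adjusted p = 6.37e-07). atgl-1, the triglyceride lipase that releases stored fat, rose from 54.9 and 55.5 to 202 and 194 CPM (log2 1.84 ± 0.08, adjusted p = 6.37e-07). Of 14 methyl cycle genes, 6 fell and 3 rose (5 without either salt-raised N2 library): sams-1 fell from 439 and 422 CPM to 146 and 173 CPM and sams-5 rose from 0.462 and 0.9962 to 37.99 and 29.4 CPM (-1.43 ± 0.09 and 5.46 ± 0.35).

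In each of 4 detoxification families more genes fell than rose. Another enzyme family, the short-chain dehydrogenases, showed no such lean, with 12 of 30 genes higher, 12 lower and a median of 0.09. Of 45 tested glutathione transferase genes 33 fell and 4 rose (7 without either salt-raised N2 library), with a median of -2.35, and their summed level dropped from 6570 and 6492 CPM to 1603 and 1402 CPM. gst-7 went from 1874 and 1629 CPM to 114 and 97.1 CPM (log2 -4.05 ± 0.22, adjusted p = 1.42e-06) and gst-5 from 1701 and 1699 CPM to 225 and 198 CPM (log2 -3.01 ± 0.10, adjusted p = 2.03e-07). gst-15 rose, from 23.6 and 23.4 to 198 and 167 CPM (log2 2.96 ± 0.22, adjusted p = 6.34e-06). Among cytochrome P450 genes 44 of 75 fell and 17 rose, among glucuronosyl transferases 46 of 66 fell and 12 rose, and among ABC transporters 24 of 41 fell and 8 rose, with medians of -0.74, -1.38 and -0.60. ugt-62 fell from 427 and 384 CPM to 20.8 and 26.8 CPM (log2 -4.09 ± 0.16, adjusted p = 3.58e-07). The drug efflux pump gene pgp-1 fell from 502 and 433 CPM to 5.74 and 5.44 CPM (log2 -6.38 ± 0.18, adjusted p = 9.47e-08) and mrp-2 from 577 and 494 CPM to 56.9 and 56.0 CPM (log2 -3.24 ± 0.10, adjusted p = 1.48e-07).

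Genes for digestive and immune secreted proteins also fell more often than they rose. Of 24 cathepsin-type protease genes 18 fell and 4 rose (median -1.22). cpr-1, a gut cysteine protease, went from 609 and 471 CPM to 13.2 and 11.4 CPM, 43.9-fold lower (log2 -5.46 ± 0.20, adjusted p = 2.74e-07), and the abundant aspartyl protease gene asp-1 from 4496 and 4188 CPM to 1936 and 1877 CPM (log2 -1.19 ± 0.14, adjusted p = 9.67e-05). cpl-1, a cathepsin L needed to process yolk in embryos, rose from 204 and 195 to 806 and 775 CPM (log2 1.99 ± 0.10, adjusted p = 9.01e-07), and cpr-6 from 22.02 and 26.8 to 177 and 161 CPM. Of 13 lysozyme genes 10 fell and 2 rose, with lys-2 at 212 and 217 CPM on low and 14.4 and 15.1 CPM on high salt. C-type lectin genes fell in 81 of 110 cases and rose in 14, with a median of -1.82. clec-42 went from 139 and 121 CPM to 13.4 and 16.7 CPM (log2 -3.11 ± 0.13, adjusted p = 5.08e-07), and the member with the highest rise, clec-266, from 8.54 and 19.7 CPM to 813 and 701 CPM (log2 5.73 ± 0.46, adjusted p = 9.93e-06). The span of clec-266 overlaps kqt-1, at 30.1 CPM.

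The gut itself was read from markers of its cells. Structural genes fell: act-5, the actin of the microvilli, went from 1492 and 1365 CPM to 554 and 579.8 CPM (log2 -1.33 ± 0.09, adjusted p = 4.57e-06) and ifb-2, of the terminal web, from 1096 and 1095 CPM to 572 and 567 CPM (log2 -0.94 ± 0.10, adjusted p = 4.31e-05). elt-2, the factor that maintains gut fate, stood at 21.4 and 20.96 CPM on low and 18.8 and 20.5 CPM on high salt (log2 -0.11 ± 0.10, adjusted p = 0.33), and vha-6, a pump subunit of the gut's apical membrane, at 460.3 and 461 CPM on low and 476 and 456 CPM on high salt (log2 0.02 ± 0.12, adjusted p = 0.901). Of the 9 tested gut markers 5 fell and 2 rose (1 without the filter, with the filter of 5 CPM, in DESeq2 or with the replicate block, and 1 or none without any lin-45 library or any N2 library with parents on 50 mM), and their summed level went from 7754 and 7320 CPM to 3681 and 3622 CPM, moved mostly by asp-1. In whole embryos fewer cells of a type and less RNA per cell cannot be told apart. The part of gut cell number in the falls of protease, lectin and detoxification genes was not tested.

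Collagen genes moved in both directions. Nematode cuticle is built from many short collagens, most of them encoded by col genes, and a smaller set whose mutants change body shape. Of the tested col genes 65 rose (62.5%) and 28 fell (26.9%), with a median of 1.03. Losses in well-read members outweighed the gains, and the summed col level went from 34260 and 32600 CPM to 17810 and 18020 CPM. col-10 went from 3910 and 3498 CPM to 1159 and 1153 CPM (log2 -1.68 ± 0.13, adjusted p = 8.75e-06), col-166 from 3187 and 2761 CPM to 648 and 637 CPM (log2 -2.21 ± 0.14, adjusted p = 3.29e-06) and col-98 from 2442 and 2148 CPM to 317 and 276 CPM (log2 -2.95 ± 0.19, adjusted p = 2.84e-06). col-103, col-42, col-3 and col-117 were also among the 10 largest losses of reads, at -3.17, -2.90, -0.82 and -1.41. Among the genes that rose, col-50 had the highest fold, from 0.0923 and 0.0687 CPM, 4 counts in all, to 10.5 and 9.80 CPM (log2 6.93 ± 0.60, adjusted p = 1.51e-05).

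Body-shape collagen genes rose in 12 of 15 cases and fell in 2 (1 without either low-salt library or when 5 CPM was required), with a median of 2.54. sqt-3, needed for embryos to keep their elongated shape, stood at 388 and 1047 CPM on 50 mM and 2846 and 2983 CPM on 500 mM (log2 2.02 ± 0.38, adjusted p = 0.00132). dpy-17 stood at 190.3 and 554 CPM on low and 2188 and 2129 CPM on high salt (log2 2.54 ± 0.41, adjusted p = 0.000566) and dpy-14 at 164 and 483 CPM on low and 1853 and 1762 CPM on high salt (log2 2.48 ± 0.40, adjusted p = 0.000615). In each of the 3, both high-salt libraries were above both low-salt libraries, as their choice among the largest gains required. Replicate 2 on low salt stood more than 2-fold above replicate 1 in each. F41F3.3 behaved in the same way, at 358 and 924 CPM on low and 1924 and 2079 CPM on high salt (log2 1.64 ± 0.36, adjusted p = 0.00316). The furrow collagen genes dpy-7 and dpy-10 went from 25.4 and 39.5 CPM to 221 and 209 CPM and from 29.4 and 63.1 CPM to 308 and 296 CPM. rol-8 fell, from 6.42 and 4.16 CPM to 0.190 and 0.0676 CPM, 8 counts in all (log2 -5.29 ± 0.49, adjusted p = 2.33e-05).

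The precuticle and moulting list (apical matrix in the plot of list shares), the extracellular matrix laid down before the cuticle, rose in 19 of 20 tested members (median 1.89). noah-1, for a zona pellucida protein of the embryonic sheath, went from 84.5 and 104.5 CPM to 683 and 668 CPM (log2 2.84 ± 0.14, adjusted p = 8.32e-07), and mlt-11, for a protease inhibitor of the moult, from 49.0 and 77.6 CPM to 504 and 498 CPM (log2 2.98 ± 0.20, adjusted p = 4.28e-06). The span of let-4 overlaps bltp-3B, at 50.6 CPM. let-4, for a leucine-rich repeat protein of the apical matrix, and lrp-1, for an epidermal lipoprotein receptor, rose by 2.56 ± 0.11 and 1.94 ± 0.09. cut-3, a cuticlin gene, stood at 96.6 and 299 CPM on low and 810.4 and 869 CPM on high salt (log2 2.08 ± 0.43, adjusted p = 0.00239). The peroxidase gene mlt-7 was the exception, at 106 and 108 CPM on low and 70.6 and 71.9 CPM on high salt (log2 -0.58 ± 0.11, adjusted p = 0.0012).

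Hedgehog-related genes, which in nematodes encode secreted proteins of epithelia and matrix rather than classic hedgehog signals, rose in 30 of 44 cases and fell in 7 (median 1.20). wrt-10 went from 17.5 and 18.6 CPM to 132 and 122 CPM (log2 2.81 ± 0.13, adjusted p = 6.96e-07) and qua-1 from 12.4 and 25.3 CPM to 80.8 and 85.4 CPM (log2 2.13 ± 0.27, adjusted p = 0.000148), while grl-21 fell from 334 and 305 CPM to 92.6 and 90.4 CPM (log2 -1.80 ± 0.11, adjusted p = 2.51e-06). Genes for patched-related membrane proteins rose in 22 of 26 cases and fell in 1 (none without replicate 2 on 500 mM, 2 in a fit of the lin-45 libraries alone; median 1.00), with ptr-25 up from 37.6 and 53.7 to 209.7 and 220.5 CPM (log2 2.23 ± 0.16, adjusted p = 5.08e-06) and ptr-4 by 1.84 ± 0.22. Astacin proteases, several of which trim collagens, gave 14 of 30 higher and 10 lower. hch-1, which embryos need to digest the eggshell at hatching, rose from 9.23 and 21.8 to 262 and 264 CPM (log2 4.06 ± 0.35, adjusted p = 1.51e-05), dpy-31, which processes sqt-3 collagen, by 1.47 ± 0.13, and nas-9 fell by 2.36 ± 0.18.

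Epidermal genes beneath that matrix also rose, in 14 of 21 cases with 1 lower (none without replicate 2 on 500 mM, 2 without either low-salt library; median 0.59). sma-1, the spectrin of epidermal elongation, went from 280.4 and 291 CPM to 1018 and 976 CPM (log2 1.80 ± 0.08, adjusted p = 5.91e-07). The junction genes ajm-1 and dlg-1 rose by 1.29 ± 0.10 and 1.37 ± 0.11, and the seam cell factor gene egl-18 by 1.20 ± 0.07. elt-3, a factor of the main epidermis, fell by 0.38 ± 0.08. Basement membrane genes on the inner face gave 6 of 14 higher and 2 lower (1 without any lin-45 library): the laminin gene lam-3 went from 14.9 and 29.1 CPM to 428 and 407 CPM (log2 4.24 ± 0.29, adjusted p = 4.09e-06) and nidogen, nid-1, from 88.1 and 84.2 CPM to 239 and 239 CPM (log2 1.47 ± 0.08, adjusted p = 1.21e-06).

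**Figure D4:**
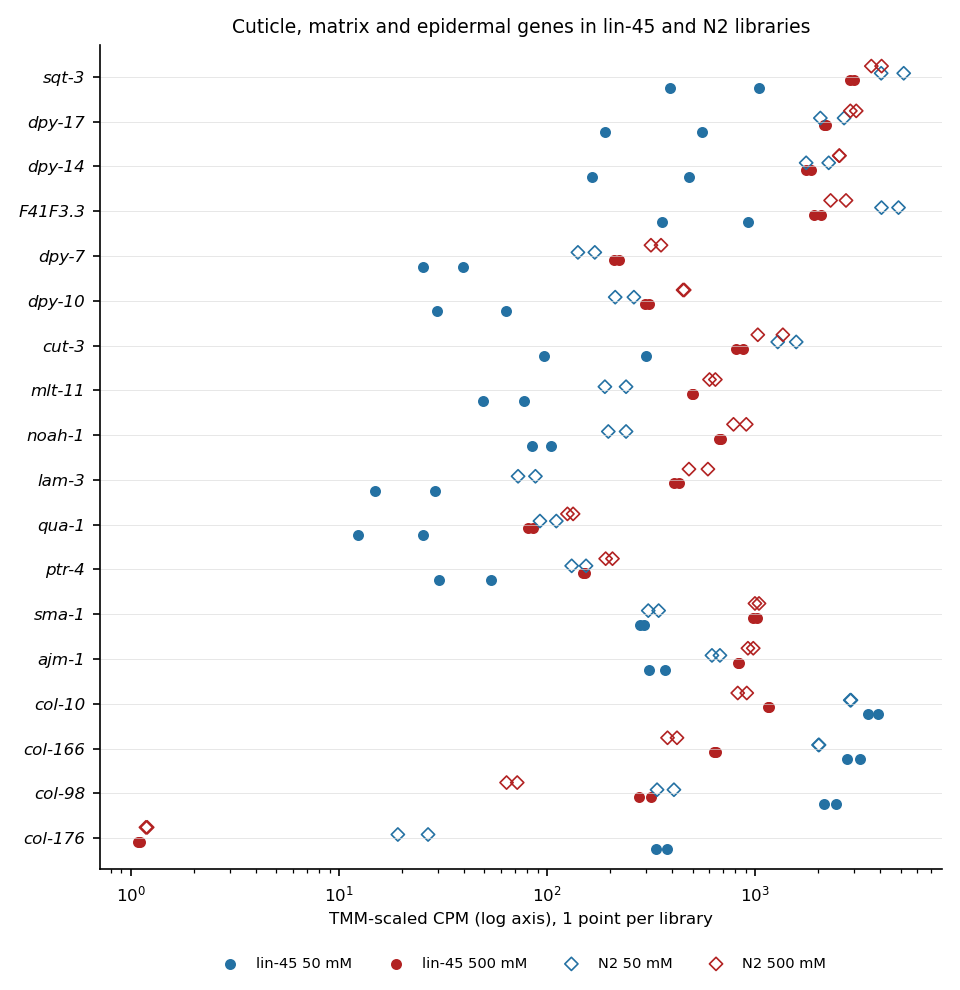
TMM-scaled CPM on a log axis for 18 cuticle, matrix and epidermal genes, with 1 point per library (filled circles lin-45, open diamonds N2, blue 50 mM, red 500 mM). For sqt-3, dpy-17, dpy-14, cut-3 and F41F3.3 both lin-45 libraries on 50 mM lie far below all the others and apart from each other, and for col-10 and col-166 the groups separate by salt in both strains.

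The 2 low-salt libraries differed in these genes. The 226 genes at least 2-fold higher in replicate 2 than in replicate 1 on 50 mM include 11 of the 44 hedgehog-related, 5 of the 15 body-shape and 5 of the 20 precuticle genes. Against replicate 1 alone the list medians on 500 mM were 2.47 for body-shape collagens, 2.17 for precuticle genes, 1.44 for hedgehog-related and 1.37 for patched-related genes. Against replicate 2 alone they were 1.90, 1.43, 0.74 and 0.68. The direction was thus shared by both low-salt libraries and the size was not. Of the 226 genes 214 rose on 500 mM and 2 fell, which is a description only, since the same libraries chose them. The 5 with the largest gap, at 20 CPM or more, were fmo-2, mtre-1, grl-5, cut-3 and F33D4.6, and grl-5 stood at 9.37 and 31.2 CPM on 50 mM and 67.6 and 72.3 CPM on 500 mM. In the other direction rrn-3.1, rrn-1.1, rrn-1.2, MTCE.7 and nduo-3, all ribosomal RNA genes or genes of the mitochondrial genome, were higher in replicate 1, with rrn-3.1 at 110.5 and 13.7 CPM. rrn-1.1 and rrn-1.2 are near-identical copies whose reads were split evenly. The embryos' stage at collection is not labelled, and a difference of stage between these libraries cannot be told apart from other differences in handling.

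The N2 median was lower than the lin-45 median in each of these families. In N2 4 hedgehog-related genes rose and 20 fell (median -0.50), 18 col genes rose and 42 fell (median -0.46), and 9 precuticle genes rose and 4 fell (median 0.40). Body-shape collagen genes (7 of 15 higher, 1 lower, median 0.64) and patched-related genes (8 of 26 higher, 5 lower, median 0.11) had, like the precuticle genes, N2 medians of the same sign as in lin-45. The salt effect was more positive in lin-45 for 29 of 44 hedgehog-related, 52 col, 17 of 20 precuticle, 16 of 26 patched-related and 10 of 15 body-shape genes by the interaction, against 12.2% of all tested genes. Without N2 50 mM replicate 1 these counts were 11, 15, 7, 5 and 1, and without N2 500 mM replicate 2 they were 11, 22, 8, 7 and 2. The hedgehog-related count was 17 without lin-45 500 mM replicate 2, and the precuticle count was 11 without lin-45 500 mM replicate 1.

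Muscle genes had no common direction. Of 26, 6 rose and 10 fell (2 without replicate 2 on 500 mM), with a median of -0.04 and a summed level between 23760 and 26680 CPM in the 4 libraries. The body wall myosin gene myo-3 rose from 1115 and 1092 to 1911 and 1770 CPM (log2 0.74 ± 0.12, adjusted p = 0.000517). unc-98, of the sarcomere's attachments, fell by 1.21 ± 0.09 and overlaps pcyt-1, at 59.9 CPM. hnd-1, an early muscle factor, rose by 4.61 ± 0.70 from 7 counts over both low-salt libraries. In the pharynx list 5 of 14 rose and 3 fell, but the count of falls was 0 without replicate 2 on either salt and 1 without replicate 1 on either salt or either salt-raised N2 library, or in DESeq2. The regulators pha-4, ceh-34 and eya-1 rose by 0.78 ± 0.07, 1.12 ± 0.09 and 1.62 ± 0.13, though eya-1 overlaps fipr-24, at 82.8 CPM.

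Neuronal lists differed: factors that start neuron formation mostly rose, and neuron markers fell more often than they rose. Factors that start neuron formation rose in 8 of 10 cases (median 1.49): ngn-1 went from 0.369 and 0.309 CPM to 9.95 and 10.1 CPM (log2 4.88 ± 0.40, adjusted p = 1.11e-05), cnd-1 from 0.785 and 0.927 CPM to 10.6 and 9.86 CPM (log2 3.56 ± 0.15, adjusted p = 4.66e-07), and their general partner hlh-2 from 28.6 and 28.2 CPM to 77.9 and 79.5 CPM (log2 1.47 ± 0.14, adjusted p = 2.72e-05). The neuron markers hold fate factors such as unc-86 and unc-3 beside synaptic and transmitter genes. Of the 28 tested, 13 fell and 5 rose, with a median of -0.23. The count of rises moved when a salt-raised N2 library was left out. The synaptic genes rab-3 and unc-18 fell from 239 and 231 CPM to 137 and 139 CPM and from 320.2 and 294 CPM to 194 and 196 CPM, and egl-21, a neuropeptide processing enzyme, changed by -1.004 ± 0.13. Neuropeptide genes fell in 71 of 92 cases and rose in 2 (none with the filter of 5 CPM, 1 in DESeq2), with a median of -0.78. The count of rises also moved when single libraries were left out. A fall of at least 2-fold was called for 21 of the 92, against 15.4% of all tested genes. The lowest value was -1.71. flp-14 stood at 142 and 134 CPM on low and 50.04 and 45.9 CPM on high salt (log2 -1.52 ± 0.13, adjusted p = 1.73e-05), and flp-17 at 88.2 and 75.8 CPM on low and 24.3 and 25.9 CPM on high salt (log2 -1.71 ± 0.16, adjusted p = 2.36e-05). Channels followed, with 49 of 87 ligand-gated channel genes lower and 13 higher, and 35 of 60 potassium channel genes lower and 7 higher. twk-25 fell from 17.3 and 16.5 CPM to 0.634 and 0.845 CPM (log2 -4.51 ± 0.25, adjusted p = 1.48e-06), and lgc-22 rose from 16.99 and 43.1 to 122 and 146 CPM (log2 2.14 ± 0.36, adjusted p = 0.000758).

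Of 54 listed early zygotic genes 28 were tested, and 26 stayed below 1 CPM (before TMM scaling) in all 4 libraries. Genes nearly silent on 50 mM could pass the filter only through other libraries, which favours rises among the tested members. Of the 28 tested, 21 rose and 3 fell (median 2.87), most at low levels, and 10 rose when 5 CPM was required. Their summed level nevertheless went down, from 363 and 358 CPM to 152 and 180.4 CPM. sdz-25 rose from 0.462 and 0.584 to 20.3 and 24.1 CPM (log2 5.38 ± 0.92, adjusted p = 0.000839), while sdz-8 and sdz-24 fell from 194 and 197 CPM to 15.8 and 13.8 CPM and from 146 and 136 CPM to 15.02 and 18.98 CPM. The endoderm and mesoderm starters were close to silent: end-1 had 0, 1, 7 and 11 counts in the 4 libraries and med-1 had 4, 2, 5 and 1. Such low counts moved both ways: ceh-51 had 5, 4, 29 and 40, end-3 had 1, 7, 8 and 9, and med-2 had 14, 21, 2 and 5. Of 37 maternal regulators 18 rose (10 without replicate 1 on 50 mM), 4 fell and 15 were not called, and their summed level was 2802 and 2803 CPM on low and 2834 and 2892 CPM on high salt. pal-1, the Caudal factor of posterior cells, went from 5.45 and 6.36 CPM to 24.8 and 27.3 CPM (log2 2.14 ± 0.14, adjusted p = 3.2e-06) and pos-1, for a zinc finger protein of early blastomeres, from 2.31 and 4.02 CPM to 17.6 and 25.9 CPM (log2 2.75 ± 0.78, adjusted p = 0.0121, not called without replicate 1 on 50 mM). The span of pal-1 overlaps metl-5, at 8.50 CPM. skn-1, first a maternal endoderm factor and later a stress factor, fell from 401 and 402 CPM to 216 and 218 CPM (log2 -0.89 ± 0.07, adjusted p = 7.66e-06), and lin-41 fell by 1.02 ± 0.12. Germ granule and germ cell genes rose in 14 of 21 cases and fell in 3 (1 with library size alone, or without replicate 1 on 50 mM or either library on 500 mM), with prg-1, the Piwi protein, down by 0.87 ± 0.09 and mes-3, of the worm's Polycomb complex, up by 0.85 ± 0.09. Whether embryos on 500 mM were at an earlier stage after 3 hours than those on 50 mM was not tested.

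Cell division genes gave an unsteady count. In the mitosis list 13 of 36 rose and 3 fell (none without either library on 500 mM), but 7 rose without replicate 1 on 50 mM or replicate 2 on 500 mM, 8 without replicate 2 on 50 mM, and 22 without either N2 library of salt-raised parents. cki-1, the inhibitor that holds cells in arrest, rose from 21.7 and 26.4 to 87.8 and 85.3 CPM (log2 1.84 ± 0.12, adjusted p = 2.9e-06), and so did fzr-1, by 1.05 ± 0.10, and the mitotic genes cyb-1 and cdc-25.2, by 1.85 ± 0.32 and 1.70 ± 0.21. Of 32 DNA replication genes 11 fell and 1 rose (none without replicate 2 on 50 mM, 4 without either salt-raised N2 library), and none was called lower without replicate 1 on 50 mM or without either library on 500 mM, 6 with library size alone, 7 without replicate 2 on 50 mM or either N2 library on 50 mM, and 18 in a fit of the lin-45 libraries alone. rnr-1, for ribonucleotide reductase, stood at 138 and 105 CPM on low and 45.9 and 49.0 CPM on high salt (log2 -1.35 ± 0.39, adjusted p = 0.0132), which was not called without replicate 1 on 50 mM or either library on 500 mM. Histone genes showed 6 of 35 higher and 4 lower (2 without replicate 2 on 500 mM), and their median was -0.30 against replicate 1 and 0.41 against replicate 2 of the low-salt pair. The linker histone genes hil-7 and hil-1 rose from 128 and 249 to 749 and 697 CPM and from 13.2 and 15.2 to 69.0 and 54.9 CPM. Cell death and engulfment genes rose in 11 of 18 cases with none lower: the killer gene egl-1 went from 0.646 and 1.48 CPM to 4.69 and 4.32 CPM (log2 2.04 ± 0.30, adjusted p = 0.00036) and the engulfment receptor gene ced-1 rose by 0.57 ± 0.07. The caspase gene ced-3, chosen after its values were seen, rose by 1.11 ± 0.21.

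Large gene families of regulators moved apart. Homeobox ceh genes rose in 34 of 55 cases and fell in 6 (3 without replicate 2 on 500 mM; median 0.57), with ceh-99 at 1.43 and 1.03 CPM on low and 11.9 and 10.4 CPM on high salt. Nuclear hormone receptor genes fell in 105 of 226 cases and rose in 54 (median -0.26), with nhr-142 at 88.1 and 82.3 CPM on low and 5.58 and 5.34 CPM on high salt (log2 -3.96 ± 0.09, adjusted p = 4.86e-08). F-box genes, for substrate adaptors of ubiquitin ligases, were tested in 254 of 391 cases. Of these 131 rose and 64 fell (median 0.89), or 68 and 41 when 5 CPM was required. fbxc-51 went from 9.56 and 13.4 CPM to 236 and 234 CPM (log2 4.35 ± 0.25, adjusted p = 1.86e-06). MATH and BTB genes, of another adaptor family, gave 25 of 73 higher and 17 lower, or 14 and 10 when 5 CPM was required, with math-34 up by 2.68 ± 0.12. Chemoreceptor genes, of which 219 of 1685 were read well enough to test, gave 63 higher (41 without replicate 1 on 500 mM), 62 lower (39 without replicate 1 on 50 mM) and a median of -0.06. Those counts were 97 and 177 without the filter and 20 and 22 when 5 CPM was required.

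The salt effect of lin-45 embryos differed from that of N2 embryos for part of the genome. By the interaction 3912 genes passed (26.4%), 1801 more positive (12.2%) and 2111 more negative (14.3%) in lin-45. That split moved with the scaling: it was 2081 and 1549 with RLE factors, 2350 and 1219 with upper-quartile factors, 2481 and 1015 with library size alone, and 2370 and 971 without the filter on low counts. It also rested on single libraries: 787 genes passed without N2 50 mM replicate 1, 1110 without N2 500 mM replicate 2, 2125 and 2479 without the other N2 library on 50 and 500 mM, 1890 without lin-45 50 mM replicate 1, and 1675 and 1803 without lin-45 500 mM replicates 1 and 2. Of the genes called in lin-45, 3319 rose and 3605 fell in N2 too.

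**Figure D5:**
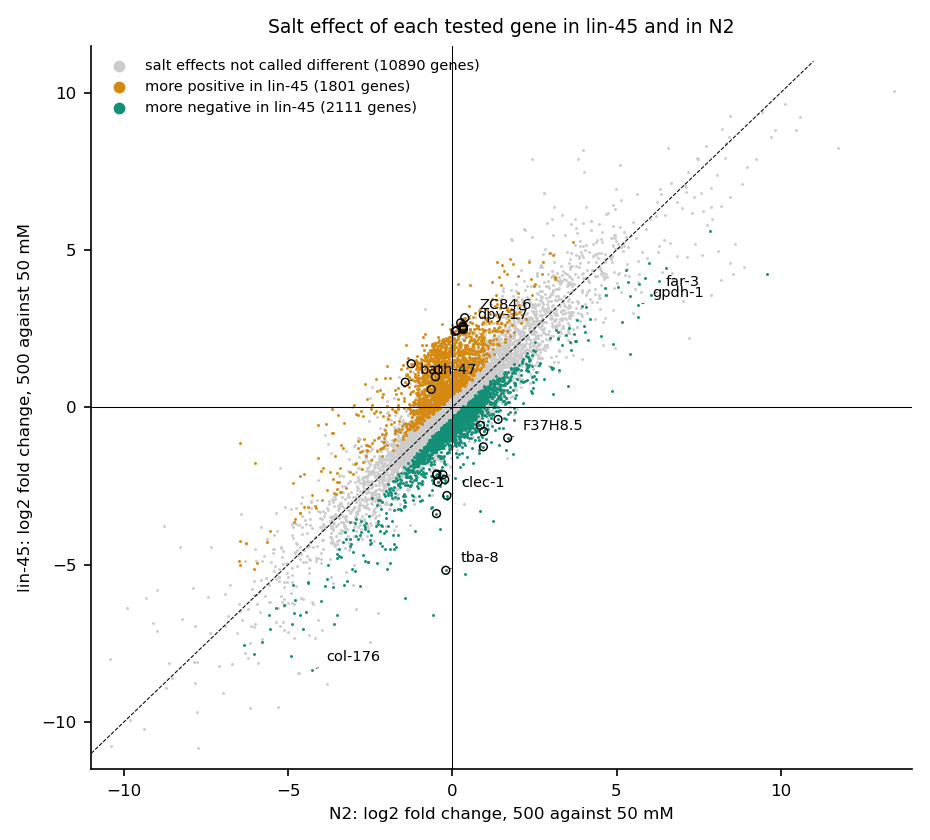
Log2 fold change of 500 against 50 mM for each tested gene in N2 (x axis) and lin-45 (y axis), coloured by the interaction test, with the 26 genes named for a strain difference circled and the dashed line marking equal effects. Most genes lie near the dashed line, ZC84.6 and dpy-17 lie high on the lin-45 axis and near 0 on the N2 axis, and tba-8 and clec-1 lie low on the lin-45 axis and near 0 on the N2 axis.

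Large changes in lin-45 with little change in N2 were uncommon. Changed at least 4-fold in lin-45, within 0.5 of 0 in N2 and different by the interaction were 84 genes that rose (0.567%) and 20 that fell (0.135%). ZC84.6 stood at 2.58 and 5.77 CPM on low and 29.5 and 32.2 CPM on high salt in lin-45 and at 41.4 and 35.6 CPM on low and 53.7 and 46.2 CPM on high salt in N2 (interaction 2.47 ± 0.36, adjusted p = 0.00623). dpy-17 stood at 2673 and 2056 CPM on low and 3058 and 2866 CPM on high salt in N2 (interaction 2.21 ± 0.55, adjusted p = 0.0222). In both genes the lin-45 libraries on low salt were the lowest 2 of the 8. The same held for R11F4.3, C01G6.9, dpy-14, T19H12.6, ZC84.1 and F49E10.2, the others of the 8 highest. C01G6.9 overlaps acs-7, at 116 CPM. Among those that fell, tba-8, an epidermal alpha tubulin gene, stood at 36.1 and 25.9 CPM on low and 1.05 and 0.642 CPM on high salt in lin-45 and at 0.837 and 1.03 CPM on low and 0.732 and 0.927 CPM on high salt in N2 (interaction -4.98 ± 0.47, adjusted p = 0.0018). far-2, clec-1 and mpst-7 likewise stood higher in both lin-45 libraries on 50 mM than in the other 6 libraries, and mpst-7 overlaps eif-3.K, at 65.9 CPM. swt-7, for a sugar transporter, cest-33, for a carboxylesterase, cyp-35A3 and the receptor gene nhr-12 complete the 8 lowest. nhr-12 was the one whose level was lower in lin-45 than N2 on both salts, at 36.3 and 39.8 CPM on low and 8.94 and 8.55 CPM on high salt against 114 and 108 CPM on low and 84.7 and 75.6 CPM on high salt. Without N2 50 mM replicate 1 the interactions of C01G6.9, F49E10.2, T19H12.6, ZC84.1, cyp-35A3, dpy-14 and dpy-17 were not called, and without N2 500 mM replicate 2 those of the same genes other than cyp-35A3 were not. Leaving out replicate 1 or 2 of lin-45 on 500 mM ended the call for C01G6.9, cyp-35A3, dpy-14 and dpy-17, and for T19H12.6 replicate 1 did.

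Opposite calls in the strains were found for 202 genes that rose in lin-45 and fell in N2 (1.36%) and 125 that fell in lin-45 and rose in N2 (0.844%), all different by the interaction. The transcription factor gene ztf-16 stood at 32.1 and 39.5 CPM on low and 68.2 and 72.6 CPM on high salt in lin-45 and at 117 and 108 CPM on low and 78.9 and 78.7 CPM on high salt in N2. ptc-3, a patched gene, stood at 99.2 and 134 CPM on low and 260.1 and 273 CPM on high salt in lin-45 and at 409.9 and 364 CPM on low and 300.4 and 271 CPM on high salt in N2. In both genes the strains were far apart on low salt and close on high salt. bath-47, tag-343 and B0334.13 were the other 3 with the smallest interaction p in that direction, and B0334.13 overlaps hacl-1, at 282 CPM. In the reverse direction, elo-6, a fatty acid elongase gene, stood at 169 and 155 CPM on low and 100.2 and 90.2 CPM on high salt in lin-45 and at 54.6 and 60.3 CPM on low and 109.9 and 113 CPM on high salt in N2. F37H8.5 fell in lin-45 from 75.2 and 65.8 to 36.7 and 34.99 CPM and rose in N2 from 14.8 and 14.03 to 43.2 and 49.4 CPM. let-767, pan-1 and ZK1307.1 completed that set, and let-767, whose fall in lin-45 was not called without replicate 2 on 500 mM, overlaps rpn-13, at 137 CPM.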

How the data were processed

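For each of the 10 libraries the authors deposited an expected count per gene from RSEM, not normalized, and an FPKM value. They also deposited log2 values, which equal log2(FPKM + 1) within 5.15e-14 and were not used. Build ce10 and the tools RSEM 1.2.15, DESeq 1.10.1, BWA 0.6.1 and bedtools 2.25.0 are listed, with no role or order, in the submitters' processing notes. Which annotation was used, and whether strand was used in counting, is not given in the sources used here. Of the nonzero expected counts 59.9% are whole (tolerance 1e-09), and all were rounded before testing. FPKM served only to rank abundance. RSEM divides reads between near-identical copies, and 3226 tested genes overlap another tested gene, so reads of such genes can be mixed.

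The rounded counts entered edgeR 4.0.16 (R 4.3.3). A filter of 1 CPM or more in 2 or more libraries kept 14802 genes with at least 99.89% of every library's counts, and TMM factors ran from 0.923 to 1.083. All 10 libraries entered 1 quasi-likelihood fit with 5 group means, with 5 residual degrees of freedom per gene and 3.65 prior ones (median). The coefficient of variation was 13.1% (common dispersion 0.0173). On simulated counts for lin-45 500 against 50 mM over 14337 genes, 84.7% of 98 genes changed by a log2 of 1 and 9.1% of 99 changed by 0.5 were recovered, with 3 false calls. Only these genes were changed, and every gene was given the common dispersion, whereas 68.3% of genes were called in the data. The cutoff on p was therefore stricter in the simulation, and its shares do not measure recovery or false calls in this comparison. Lists are given by counts and medians, without a set test.

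The gene lists, the naming rule and the comparison were chosen with earlier results of these data known. Named are gpdh-1, gpdh-2 and lin-45. Named too are the 12 highest and lowest folds among called genes without overlap, at 20 CPM in the higher group and with more than 10 counts in the lower. The 10 largest gains and losses in CPM, and the leading members of each list, follow. For the strain difference the 8 highest and lowest and the 5 smallest p in each direction are named, and for the low-salt pair the 5 largest gaps each way. Missing or shared names of 2518 genes were replaced from RefSeq, to which 44080 of 45461 IDs matched. Replicate numbers are not labelled as shared batches, and same-numbered libraries did not deviate together (correlation over genes 0.058 between the lin-45 groups, -0.229 to 0.146 over all pairs of groups). They were therefore not used as pairs in the reported fit. A correlation over all genes cannot show an effect shared by few of them. Replicate 1 on 50 mM carried more ribosomal RNA than replicate 2 in both strains, and whether these libraries shared a batch was not tested.

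Alternatives were RLE and upper-quartile factors, library size alone, no filter, a filter of 5 CPM, DESeq2 1.42.0, the lin-45 libraries alone, a replicate block, a test against 2-fold and leaving out each library. A pseudocount of 0.25 CPM for the gaps between replicates was added after seeing the data.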

Additional observations from a re-analysis of the deposited data

Results flagged for a closer look

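The salt effect differed between lin-45 and N2, by edgeR's interaction test, for 3912 genes, and the following results of the text are among them. Values are log2 differences, in which the N2 change with salt is subtracted from that of lin-45, with n = 2 libraries in each of 4 groups. In the glycerol pathway gpdh-1 gave -2.39 ± 0.23, adjusted p = 0.00224, and gpdh-2 gave -1.10 ± 0.15, adjusted p = 0.00541.

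Of the genes changed at least 4-fold in lin-45 alone, those that rose gave 2.47 (ZC84.6), 2.43 (R11F4.3), 2.25 (C01G6.9), 2.21 (dpy-17), 2.14 (dpy-14), 2.15 (T19H12.6), 2.32 (ZC84.1) and 2.33 (F49E10.2), with adjusted p from 0.00382 (R11F4.3) to 0.0241 (dpy-14). Those that fell gave -4.98 (tba-8), -2.90 (mpst-7), -2.64 (clec-1), -1.94 (far-2), -2.07 (cyp-35A3), -1.66 (swt-7), -1.86 (cest-33) and -1.65 (nhr-12), with adjusted p from 0.0014 (swt-7) to 0.0257 (cyp-35A3). Both N2 pairs of tba-8 stayed near 1 CPM, so its difference comes from the mutant's libraries.

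Genes called in opposite directions gave 2.23 (bath-47), 1.48 (ztf-16), 1.21 (tag-343), 2.64 (B0334.13) and 1.63 (ptc-3), with adjusted p from 0.0014 (bath-47) to 0.00425 (ptc-3). The reverse set gave -2.66 (F37H8.5), -1.78 (let-767), -2.20 (ZK1307.1), -1.43 (pan-1) and -1.72 (elo-6), with adjusted p from 0.000795 (F37H8.5) to 0.00143 (pan-1). These 26 genes were picked for a difference between the strains, so their values describe its size.

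Among lists, the interaction was called more positive for 52 cuticle collagen, 10 of 15 body-shape collagen, 17 of 20 precuticle, 29 of 44 hedgehog-related and 16 of 26 patched-related genes, and more negative for 32 of 33 proteasome genes. With 2 libraries a group, no group could be examined for a single deviating sample.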

How the results depend on the processing

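The count of 10110 genes called in lin-45 embryos stayed between 8533 and 10972 under the other settings, with 4133 to 6173 higher and 3731 to 5390 lower, except in a test against a 2-fold change, where 3026 passed (1520 higher, 1506 lower). In every other setting, each gene called both there and in the reported fit had the same direction. Without either salt-raised N2 library the median log2 change over all tested genes was 0.11, against -0.02 in the reported fit. The calls summed over all lists were 2210, and 845 against 2-fold. With the replicate number as a block, which pairs nothing by label, 9792 genes passed (4798 higher, 4994 lower), and the interaction gave 2928 (1501 and 1427). Over the genes named, no called direction was reversed. gpdh-2 was called higher under 9 of 18 settings and lin-45 was not called under 15.

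The strain difference was less stable. Its 3912 calls ranged from 787 to 5291 with 1 library left out, the more positive from 392 to 3388 and the more negative from 333 to 1903. The split of 1801 and 2111 became 2350 and 1219 with upper-quartile factors, 2481 and 1015 with library size alone, 2370 and 971 without the filter, and 1984 and 1481 in DESeq2. Of the 28 interaction values tested gene by gene, 21 kept their call in every alternative, and the rest lost it only with a library left out. Genes 2-fold apart between replicates, 254 on 50 mM and 14 on 500 mM, became 469 and 47 with a pseudocount of 0.25 CPM, chosen after seeing the data.

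Values near 0 that were never called changed sign with the scaling or with a library left out, which shows only that they lie near 0. aap-1 (-0.02) ranged from -0.11 to 0.14 with a library left out and gave 0.04 (RLE factors, DESeq2), 0.03 (upper-quartile factors), 0.06 (library size alone) and 0.01 (filter of 5 CPM). With a library left out aqp-10 ranged from -0.15 to 0.04, elt-2 from -0.13 to 0.03 and vha-6 from -0.01 to 0.19. nduo-3, by contrast, was set by single libraries: it was 0.76 and ranged from -0.51 to 2.58 with a library left out, and the latter value, without replicate 1 on 50 mM, was called.

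Depth limited genes near 1 CPM, so counts of weakly read families such as F-box, MATH, chemoreceptor and early zygotic genes moved with the filter. Genes nearly silent on 1 salt pass the filter only through other libraries, which favours called changes among the tested members of such families. Recovery of changes under 2-fold is not known from the simulation, in which few genes were changed. An uncalled gene is therefore not shown to be unaltered. Salt, embryonic age and handling cannot be told apart within these groups, because stage is not labelled. Intervals cover 2 libraries a group.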

Other observations

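Several secreted peptide families split in lin-45 embryos on high salt. Of 18 antimicrobial nlp and cnc peptide genes 6 rose and 11 fell. cnc-11 rose from 6.09 and 6.91 to 283 and 171 CPM (log2 5.12 ± 0.32, adjusted p = 2.72e-06), and cnc-2 fell from 30.01 and 26.04 to 0.444 and 0.304 CPM (log2 -6.21 ± 0.35, adjusted p = 1.72e-06). nlp-27 and nlp-26, of the epidermal cluster that fungal infection and wounding induce, fell by 2.48 ± 0.13 and 3.70 ± 0.14. Among 18 fip and fipr genes, 5 rose and 11 fell: fipr-23 went from 6.37 and 5.87 CPM to 686 and 569 CPM, and fip-5 from 90.1 and 93.0 CPM to 4.56 and 4.80 CPM. Of 23 insulin-like peptide genes 13 fell and 4 rose. daf-28, a peptide that promotes growth over dauer arrest, fell from 22.6 and 16.2 to 1.11 and 1.01 CPM (log2 -4.18 ± 0.27, adjusted p = 3.04e-06), and ins-4 by 4.13 ± 0.36. ins-2 rose by 5.15 ± 0.51, from 11 counts over both low-salt libraries.

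Tubulin genes fell in 10 of 15 cases and rose in 1 (2 without replicate 2 on 50 mM). tbb-1 went from 489.8 and 419 CPM to 141 and 155 CPM (log2 -1.62 ± 0.11, adjusted p = 4.39e-06) and tba-2 from 688 and 565 CPM to 261 and 274 CPM (log2 -1.23 ± 0.19, adjusted p = 0.000421), whereas tbb-4, of sensory cilia, rose by 0.48 ± 0.10. Transthyretin-related genes rose in 22 of 49 cases and fell in 12. Of 19 lipase genes 7 rose and 6 fell, with lipl-4 up from 0.6002 and 0.481 to 3.07 and 2.94 CPM and lipl-1 down from 21.2 and 19.6 to 0.380 and 0.405 CPM, both lysosomal lipases. Tested pseudogenes rose in 109 of 271 cases (40.2%) and fell in 53 (19.6%), against 33.3% and 35.2% of protein-coding genes. On chromosome V, 30.2% of tested genes rose and 40.3% fell, the only nuclear chromosome with over 40% lower.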
